A study of Homo sapiens with 12 samples.

Results

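Retained introns are stretches between exons that remain in part of the finished transcripts of a gene. The introns described here are those shorter than 500 bases in the deposited table of retained intron events. They were chosen by measured values, namely an average over the 6 libraries of 20 or more reads for both forms together, and a rarer form that made up at least 5% of all reads. These limits left 2953 short introns of the 8551 events in the table, beside 1612 longer ones, so 4565 introns were tested in all. The cells were T-47D, an established human breast cancer line of luminal epithelial type that carries the oestrogen receptor, with wild-type genotype in the labels. They had been kept for 24 h in 1 µM palbociclib, an inhibitor of the cell cycle kinases CDK4 and CDK6, or for 24 h in its solvent DMSO. Poly(A) RNA was sequenced from 3 biological replicates of each treatment, and ATAC-seq, which measures chromatin accessibility with a transposase, was run on 3 further libraries of each. The line stands for a single tumour and its cultures, and the comparison has 1 dose and 1 time.

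Most introns are removed while the gene is still being transcribed. The spliceosome recognises a GT at the intron's 5′ end and an AG at its 3′ end, and SR proteins and hnRNP proteins help or hinder that choice. Transcripts that keep an intron often stay in the nucleus, or are destroyed by nonsense-mediated decay when the intron brings a stop codon into frame. Short introns with a high content of G and C are among those most often retained in mammalian cells, and retention is a known way for RNA-binding protein genes to tune their own output.

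No genome sequence was at hand, but 68 of the 2953 introns overlapped a promoter window of RefSeq (GRCh38.p14, 250 bases before to 50 bases after a gene start), and 15 lay wholly within one. The first 2 bases were GT in 61 of the 62 introns whose 5′ end could be read, and the last 2 were AG in 23 of 23, which also checked that the coordinates of the table are those of this build. G and C made up 38.5% to 72.8% of the 15 whole introns, with a median of 65.9%. Introns in promoter windows are near gene starts and are not a sample of all members. The following are shown 5′ to 3′ on the strand of the host gene, because they show the range of retention found and include the only member with changed retention that these windows reach. Capitals mark the splice site dinucleotides.
SLC39A7, first 165 of 303 bases, chr6:33200939-33201103, + strand: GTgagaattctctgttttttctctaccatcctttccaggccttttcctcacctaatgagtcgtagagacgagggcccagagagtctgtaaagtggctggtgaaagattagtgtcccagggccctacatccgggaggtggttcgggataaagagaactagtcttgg
RPL10, chrX:154398395-154398496, + strand: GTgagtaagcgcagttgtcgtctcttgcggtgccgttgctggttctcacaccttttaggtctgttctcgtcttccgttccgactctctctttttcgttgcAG
HARS2, chr5:140691516-140691606, + strand: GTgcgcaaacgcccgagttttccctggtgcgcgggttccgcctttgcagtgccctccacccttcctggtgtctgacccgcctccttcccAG
AUP1, chr2:74529283-74529361, - strand: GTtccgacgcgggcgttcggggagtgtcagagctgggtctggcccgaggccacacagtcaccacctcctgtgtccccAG
TMEM33, longer form, chr4:41935263-41935466, + strand: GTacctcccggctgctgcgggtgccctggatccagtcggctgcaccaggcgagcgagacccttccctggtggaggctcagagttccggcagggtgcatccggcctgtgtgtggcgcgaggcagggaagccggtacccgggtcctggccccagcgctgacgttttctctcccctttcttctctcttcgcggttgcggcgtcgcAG
TMEM33, shorter form, chr4:41935311-41935466, + strand: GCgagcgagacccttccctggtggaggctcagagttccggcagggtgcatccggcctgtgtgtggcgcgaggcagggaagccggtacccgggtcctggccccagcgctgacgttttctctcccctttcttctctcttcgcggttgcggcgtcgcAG

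The inclusion level is the share of the retained form, from 0 to 1, computed from reads of both forms after correction for the length of each. Only the intron's own spliced junction counts as the spliced form, so transcripts spliced at other sites are left out of the level. In DMSO the HARS2 intron was kept at a mean level of 0.816 and the AUP1 intron at 0.051, although both are short and G and C make up 65.9% and 68.4% of them. HARS2 encodes a mitochondrial histidyl-tRNA synthetase and AUP1 a lipid droplet protein. The HARS2 intron lies in the promoter window of another gene, HARS1, and the AUP1 intron in that of HTRA2. Whether reads of HARS1 or HTRA2 entered the counts of these introns was not tested. The 2 TMEM33 introns share their 3′ end, and the shorter one begins with GC and not GT. It stood at 0.85 in DMSO and the longer one at 0.689. Because the shorter intron lies within the longer one, the 2 can share retained reads. Their levels are therefore not shares of the same set of transcripts. With palbociclib neither TMEM33 intron changed by edgeR's quasi-likelihood test (adjusted p = 0.744 and 0.966), nor did HARS2 (adjusted p = 0.967) or AUP1 (adjusted p = 0.654).

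The 2953 introns were all distinct, but some overlapped, leaving 2741 separate blocks in 1760 host genes. Of the genes, 1149 had 1 member, 72 had 5 or more and SBF1, a myotubularin-related gene, had the most with 13. Lengths ran from 5 to 499 bases with a median of 171 and quartiles of 98 and 284. Only 10 were under 60 bases, and 967 (32.7%) were a multiple of 3. Whether the shortest of these events are true introns was not tested. By RefSeq, matched on symbol and chromosome for 2880 members, 2675 lay in protein-coding genes and 148 in long noncoding RNA genes. For the 2868 that lay inside their RefSeq gene, the median position was 0.649 of the way from gene start to end, and 426 (14.9%) lay beyond 0.9 of the way. The files do not say whether an intron interrupts coding sequence or an untranslated region.

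Members received 1.54 to 2.27 M reads per RNA library, lowest in DMSO replicate 3 and highest in DMSO replicate 2. The median member had 223.5 reads per library. The luminal genes ESR1, GATA3, FOXA1, KRT8, KRT18 and EPCAM were at mean FPKM of 43.2 to 1700 in DMSO, while VIM, a mesenchymal gene, was at 1.58 and COL1A1, a collagen gene of fibroblasts, at 23.7. At the edge of the length limit, introns of 499 bases in the noncoding genes SNHG15 and SNHG6 were inside, and introns of 500 bases in SKP2 and DLGAP1-AS1 were outside. ITGA2B and NDUFAF6 entered with a mean of exactly 20 reads, and TSNAXIP1 (19.83) and PRKAR2A-AS1 (19.67) did not. EIF3G entered with a rarer form of 5.013% and PNISR-AS1 with 5.015%, against 4.999% for TMEM138 and 4.992% for CIB1, which were left out.

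In DMSO the median inclusion level of the short introns was 0.107, with quartiles of 0.0488 and 0.347. A level under 0.1 was found in 1415 and a level over 0.5 in 546. The corresponding median of the 1612 longer introns was 0.0602. The rule sets a floor on the rarer form in reads, so these levels describe the chosen introns only. The level also corrects for length, so longer introns can pass the rule at lower levels. The difference from the longer introns and any relation of level to length therefore cannot be separated from the rule. Among the short introns the level hardly followed length. The median was 0.101 for the 751 introns under 100 bases, 0.112 from 100 to below 200, 0.107 from 200 to below 300, 0.117 from 300 to below 400 and 0.0983 from 400 bases up. Spearman's rho between length and DMSO level was -0.06 over the 2953 introns, which share the same 6 libraries.

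The comparison of treatments asked whether palbociclib changed the odds of retention. Of the short introns, 18 rose and 10 fell (edgeR, adjusted over all 4565 introns, under 0.05). Higher retention was called in 0.61% of the short introns, against 1.1% of all introns tested, and lower retention in 0.339% against 0.307%. The longer introns had 32 higher and 4 lower. An unadjusted p under 0.05 was reached by 276 short introns (9.35%). DESeq2 called 14 higher and 4 lower. The authors' deposited table, made with rMATS, lists 59 higher and 76 lower among the same introns at an FDR under 0.05, 26 of which were also called by edgeR. Nothing in the labels pairs replicates across treatments, and the p-values measure the spread between 3 cultures per group. Leaving out each library in turn gave 13 to 16 higher and 2 to 7 lower, with the fewest lower calls without DMSO replicate 3. Of the 18 higher calls, 11 held in all 6 of these fits, and of the 10 lower calls 0 did.

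**Figure D1:**
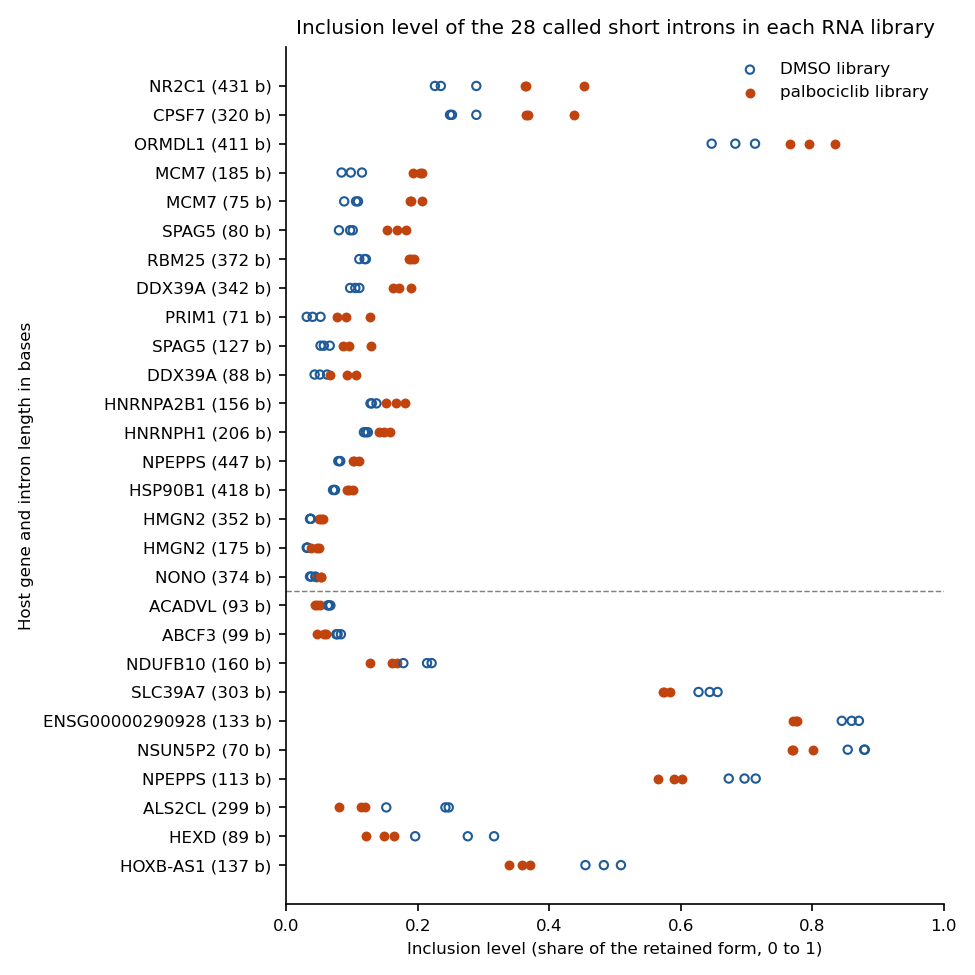
Inclusion level (0 to 1, horizontal axis) of the 28 called short introns in each RNA library, open circles for 3 DMSO and filled circles for 3 palbociclib libraries. The 18 introns above the dashed line were higher and the 10 below it lower with palbociclib, and in all 28 the groups did not overlap, which follows in part from calling them.

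Changes in level were modest. The median absolute difference between group means was 0.0138 over the 2953 introns, and 216 differed by at least 0.1, of which 8 were called. Groups did not overlap in 205 introns with higher levels under palbociclib (6.94%, against 8.81% of all introns tested) and in 254 with lower levels (8.6%, against 7.58%). The median change in log2 odds was -0.03 for the short and 0.04 for the longer introns. A positive sign was found in 1364 of the short introns (46.2%) and in 912 of the longer ones (56.6%).

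The balance of directions shifted with length. The median change was -0.09 under 100 bases, -0.05 from 100 to below 200, -0.02 from 200 to below 300, 0.05 from 300 to below 400 and 0.03 from 400 bases up. Calls in the same order were 4 higher and 4 lower, 4 and 4, 1 and 1, 5 and 1, and 4 and 0. These bins held 751, 942, 590, 422 and 248 introns. From 500 to below 1000 bases, among the longer introns, the calls were 19 and 2 of 797. Over all introns tested, 1.1% were called higher and 0.307% lower, so the counts in each short bin are small. Spearman's rho between length and the change was 0.12 over the 2953 introns. Shorter introns were also less precisely measured, with a median SE of the log2 odds of 0.37 under 100 bases and 0.29 from 400 bases up, and the part of this in the calls was not tested.

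**Figure D2:**
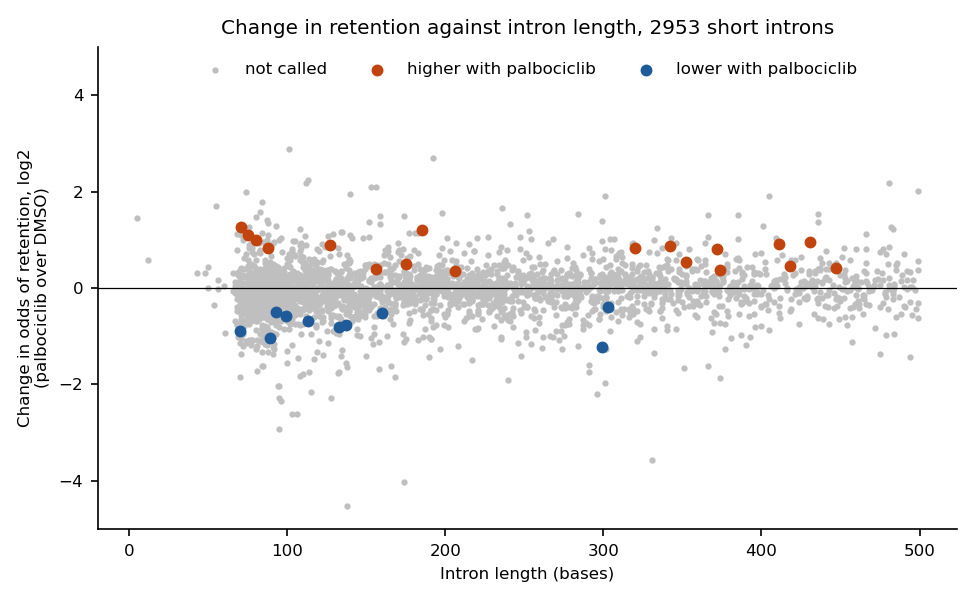
Change in the odds of retention (log2, palbociclib over DMSO, vertical axis) against intron length in bases for all 2953 short introns, with grey points not called, orange points called higher and blue points called lower. Of the 10 lower calls, 9 lie under 300 bases, while 9 of the 18 higher calls do. The upper quartile of length over all 2953 is 284 bases, so most members lie under 300 bases as well.

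Averaged over 2952 short introns with a level in every library, the mean inclusion level was 0.2329, 0.2352 and 0.2331 in DMSO replicates 1 to 3 and 0.2259, 0.2275 and 0.2312 with palbociclib. All 3 palbociclib libraries were below all 3 DMSO libraries, and the difference was -0.0056 (two-sided exact permutation test, p = 0.1, the smallest that 3 against 3 allows). A level from summed reads, in which introns of highly expressed genes weigh most, gave 0.0013 in place of -0.0056, so the sign of the average depended on the weighting. The longer introns averaged 0.1437 ± 0.0014 in DMSO and 0.147 ± 0.0038 with palbociclib (SD, n = 3), with groups that overlapped (exact permutation p = 0.3). The gap between short and longer introns was 0.0884, 0.0909 and 0.091 in the DMSO libraries and 0.0794, 0.084 and 0.0801 with palbociclib. This difference of -0.0089 again had the smallest possible exact permutation p of 0.1.

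**Figure D3:**
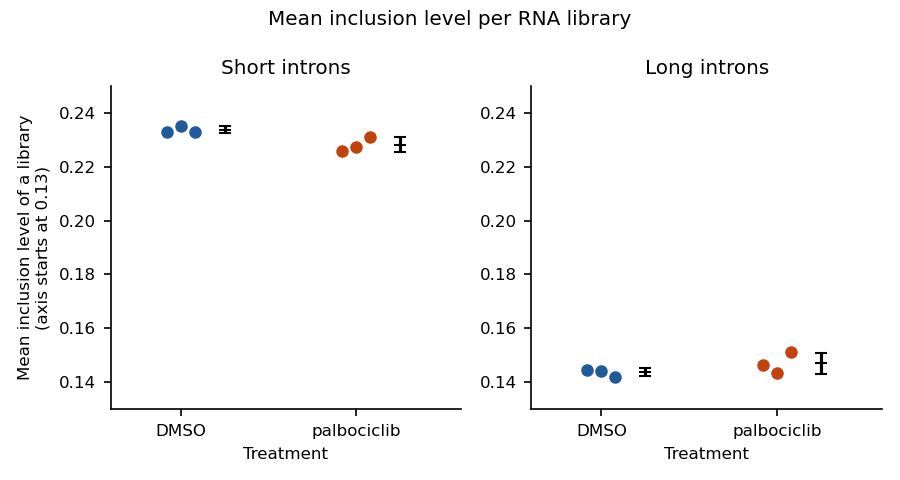
Mean inclusion level of each RNA library over short introns (left) and longer introns (right), with points for libraries and bars for the group mean ± SD of 3. The vertical axis starts at 0.13. The 3 palbociclib points of the short introns lie between 0.2259 and 0.2312, below the DMSO points.

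The 18 rises included introns of genes that copy and divide the chromosomes and of genes that bind RNA. Of the list of DNA replication and S phase genes, 31 introns in 13 genes were members, 3 (9.68%) rose and 0 fell, and the median change was 0.14 in log2 odds, against -0.001 over all introns tested. Over all introns tested, 1.1% were called higher and 0.307% lower. All 13 host genes fell in RNA level. Of the list of mitosis and chromosome segregation, 34 introns in 17 genes were members, 2 (5.88%) rose and 0 fell, the median change was 0.17 and all 17 host genes fell. Among 39 introns of 24 hnRNP and other RNA-binding genes, 4 (10.3%) rose and 0 fell, with a median of 0.03 and with 12 host genes lower and 3 higher. These lists were made with earlier results of the same libraries known.

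MCM7 encodes a subunit of the helicase that unwinds DNA at replication forks (ENSG00000166508). Its intron at chr7:100099404-100099588 (185 bases) had levels of 0.084, 0.115 and 0.098 in DMSO and 0.193, 0.204 and 0.207 with palbociclib. All palbociclib values were well above all DMSO values. The change was 1.20 in log2 odds (SE 0.19, edgeR adjusted p = 7.14e-05). The next intron, chr7:100099204-100099278 (75 bases), lies 125 bases further along the transcript and rose from 0.101 ± 0.011 to 0.195 ± 0.01 (SD, n = 3), by 1.11 (SE 0.20, adjusted p = 0.000457). These were the only MCM7 introns among the members, and both calls held when any 1 library was left out. The MCM7 rise was made of losses in both forms. Reads of the 185-base retained form were 163, 294 and 179 in DMSO and 109, 114 and 120 with palbociclib, and spliced reads were 619, 785 and 575 against 159, 155 and 160. Relative to the spliced reads of all introns tested, the retained form fell by 1.08 and the spliced form fell by 2.27 on the log2 scale. MCM7 RNA fell from 63.8 ± 0.22 to 18.8 ± 0.48 FPKM. In bulk RNA, fewer cells that use a gene and less of its RNA per cell cannot be told apart.

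SPAG5 encodes astrin, a protein of the mitotic spindle (ENSG00000076382). Its 80-base intron at chr17:28578293-28578372 stood at 0.097, 0.08 and 0.101 in DMSO and at 0.182, 0.169 and 0.153 with palbociclib, with no overlap (change 1.00, SE 0.23, edgeR adjusted p = 0.0106). Its 127-base neighbour, 75 bases away, rose from 0.058 ± 0.0072 to 0.103 ± 0.022 (adjusted p = 0.0188). Of the other SPAG5 members, the 112-base intron changed by 0.45 (SE 0.25) and the 171-base intron by 0.24 (SE 0.28), and neither was called (adjusted p = 0.485 and 0.844). The retained form of the 80-base intron fell by 1.99 and its spliced form fell by 2.99 on the log2 scale, while SPAG5 RNA went from 75.6 to 10.9 mean FPKM. Without palbociclib replicate 1 or 2 or DMSO replicate 2 the call for the 80-base intron was lost, with adjusted p of up to 0.0823, and the 127-base call was lost in 4 of the 6 fits, with up to 0.206.

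PRIM1, the catalytic subunit of DNA primase (ENSG00000198056), kept its 71-base intron at chr12:56746855-56746925 at 0.04, 0.052 and 0.031 in DMSO and at 0.127, 0.091 and 0.077 with palbociclib. The change of 1.28 (SE 0.33, edgeR adjusted p = 0.0345) was the largest in log2 odds among the 28. It rested on 17, 18 and 20 retained reads in the palbociclib libraries against 33, 53 and 24 in DMSO, and the call was lost in 4 of the 6 fits with 1 library left out, with adjusted p of up to 0.192. PRIM1 RNA fell by 2.13 on the log2(FPKM + 1) scale.

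In the same list the other members did not change by the test. FANCG, a Fanconi anaemia gene, had 8 members with changes of -0.12 to 0.48. In FANCA, another Fanconi anaemia gene whose RNA fell by 2.28, introns of 304 and 86 bases leaned towards lower retention. They changed by -0.90 (SE 0.50) and -1.16 (SE 0.78), with edgeR adjusted p of 0.503 and 0.632. Groups did not overlap in 7 introns of the list with higher levels and in 1 with a lower level, the 304-base FANCA intron. POLD2, a subunit of DNA polymerase delta, had 6 members with changes of -0.16 to 0.28. The 453-base intron of MCM4, another subunit of the replicative helicase, stood at 0.036 in DMSO and 0.039 with palbociclib (change 0.12, SE 0.15, adjusted p = 0.859), although MCM4 RNA fell by 2.49. In the mitosis list, the 78-base intron of PRC1, a cytokinesis protein whose RNA fell by 3.14, stood at 0.075 and 0.073 (change -0.02, SE 0.18, adjusted p = 0.988). FANCG, FANCA, POLD2, MCM4 and PRC1 were chosen as examples after their values were seen.

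DDX39A is an RNA helicase of mRNA export (ENSG00000123136). The levels of its 342-base intron at chr19:14409874-14410215 were 0.105, 0.111 and 0.097 in DMSO and 0.163, 0.19 and 0.172 with palbociclib, a change of 0.86 (SE 0.13, edgeR adjusted p = 2.11e-05) that held with any 1 library left out. Its 88-base intron, 338 bases away, rose from 0.052 ± 0.0095 to 0.088 ± 0.02 (adjusted p = 0.0361, up to 0.312 with 1 library left out, with 4 of 6 calls lost). The remaining DDX39A member, of 334 bases, stood at 0.027 and 0.044 and just missed the threshold (change 0.72, SE 0.20, adjusted p = 0.0617). DDX39A RNA fell by 1.08. HMGN2 encodes a nucleosome-binding protein, and its 2 members flank an exon of 30 bases. They rose from 0.037 ± 0.00071 to 0.052 ± 0.0036 (352 bases) and from 0.032 ± 0.00059 to 0.044 ± 0.0055 (175 bases). These are small differences resting on 7639 and 6329 reads per library, and both were called in every fit with 1 library left out (main adjusted p = 5.8e-06 and 0.000332). HMGN2 RNA fell by 1.30. HMGN2 has many near-identical processed copies in the genome, which lack introns, so its spliced reads are uncertain where the alignment could not tell the copies apart.

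**Figure D4:**
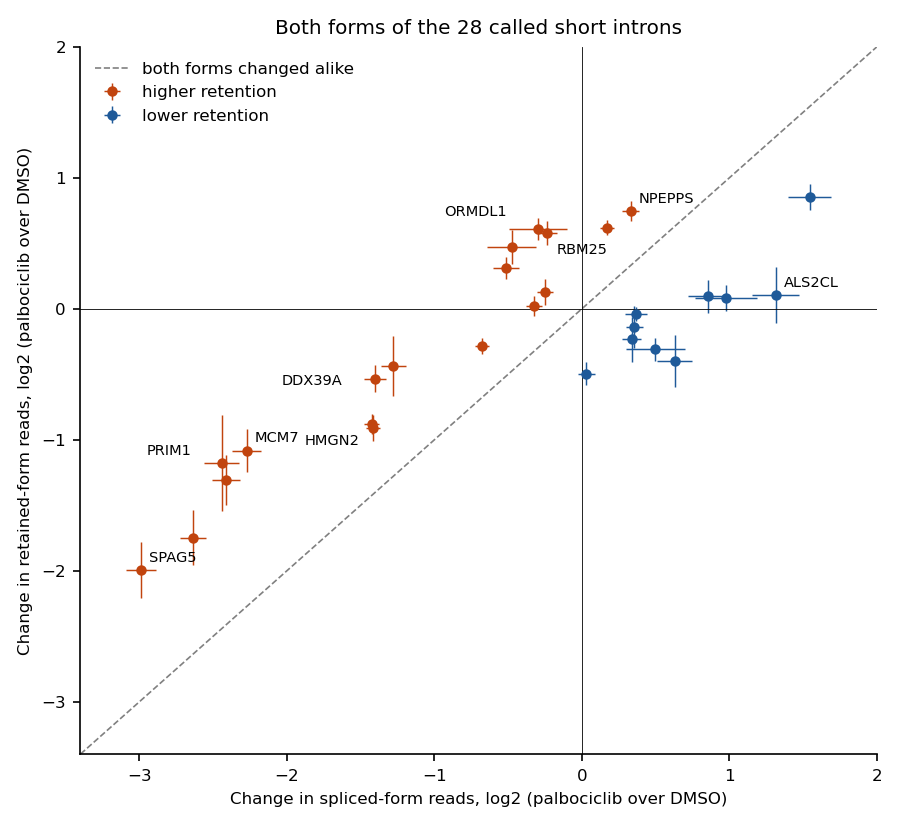
Change in retained-form reads (vertical axis) against change in spliced-form reads (horizontal axis), both log2 of palbociclib over DMSO with bars of 1 SE, for the 28 called short introns. Points above the dashed line had higher retention, and the introns of SPAG5, PRIM1, MCM7, DDX39A and HMGN2 lie where both forms fell.

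Other rises were in RNA-binding genes. RBM25 encodes a splicing regulator that binds exonic enhancers (ENSG00000119707). Its 372-base intron at chr14:73111156-73111527 was kept at 0.119, 0.121 and 0.111 in DMSO and 0.186, 0.189 and 0.194 with palbociclib. The change of 0.82 (SE 0.12, edgeR adjusted p = 9.01e-06) came from opposite movements, since retained reads rose by 0.58 and spliced reads fell by 0.24 on the log2 scale. RBM25 RNA did not change by limma (log2 -0.06, adjusted p = 0.147). CPSF7, a subunit of the cleavage factor that chooses poly(A) sites (ENSG00000149532), moved in the same way in its 320-base intron at chr11:61415785-61416104. The levels were 0.249, 0.289 and 0.252 in DMSO and 0.438, 0.365 and 0.367 with palbociclib, a change of 0.83 (SE 0.13, adjusted p = 5.96e-05). Retained reads rose by 0.31 and spliced reads fell by 0.51, while the RNA level of the gene fell by 0.13. Both calls held when any 1 library was left out.

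HNRNPA2B1 encodes an abundant hnRNP protein (ENSG00000122566). Its 156-base intron at chr7:26192339-26192494 stood at 0.128, 0.137 and 0.13 in DMSO and at 0.152, 0.167 and 0.18 with palbociclib (change 0.40, SE 0.07, edgeR adjusted p = 0.000749, called in every fit with 1 library left out). Both forms lost reads, by edgeR, as the retained form fell by 0.28 (adjusted p = 0.00011) and the spliced form fell by 0.68 on the log2 scale. HNRNPA2B1 RNA fell by 0.57 (limma adjusted p = 2.15e-05). The other HNRNPA2B1 members, of 201 and 297 bases, changed by 0.12 and -0.02 (adjusted p = 0.483 and 0.955) with 12340 and 16400 reads per library, so within this gene the call was on 1 of 3 introns. HNRNPH1, whose protein binds runs of G, had 1 called intron of 206 bases that rose from 0.121 ± 0.003 to 0.149 ± 0.0078 (adjusted p = 0.0241). That call was lost in 5 of the 6 fits with 1 library left out, holding only without palbociclib replicate 2 (adjusted p of up to 0.122), and the HNRNPH1 introns of 92 and 56 bases changed by -0.07 and -0.01. NONO, a paraspeckle protein, rose in its 374-base intron from 0.039 ± 0.0043 to 0.05 ± 0.0039 (adjusted p = 0.0491, lost in 4 of 6 fits). HNRNPA1, HNRNPA3 and CIRBP were also in the list and had introns whose groups did not overlap, all with higher levels, but none was called (adjusted p = 0.0581 for the 292-base intron of HNRNPA1). Within the list, groups failed to overlap in 9 of 39 introns (23.1%), all 9 of them higher with palbociclib, against 8.81% higher and 7.58% lower over all introns tested. SR protein genes and their kinases had only 3 members, in CLK3, CLK4 and SRSF5, and none was called, although the groups did not overlap for CLK3 (0.154 in DMSO and 0.182 with palbociclib).

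Rises also occurred in genes outside those lists. NR2C1, an orphan nuclear receptor (ENSG00000120798), had the largest rise in level. Its 431-base intron at chr12:95057879-95058309 went from 0.289, 0.235 and 0.226 in DMSO to 0.363, 0.365 and 0.453 with palbociclib (change 0.96, SE 0.23, edgeR adjusted p = 0.0147). The call was lost without palbociclib replicate 3, DMSO replicate 2 or DMSO replicate 3, with adjusted p of up to 0.116. ORMDL1, a regulator of sphingolipid synthesis (ENSG00000128699), had a high level in its 411-base intron at chr2:189782603-189783013. Its ends were read unequally. Reads across the 5′ end were 119% of spliced reads in DMSO and 264% with palbociclib, and across the 3′ end 284% and 525%. The level of the ORMDL1 intron was 0.647, 0.683 and 0.713 in DMSO and 0.766, 0.795 and 0.834 with palbociclib (change 0.91, SE 0.18, adjusted p = 0.00219, called in every fit with 1 library left out). Its retained reads rose by 0.61, and the gene's RNA rose by 0.30. HSP90B1, a chaperone of the endoplasmic reticulum, and NPEPPS, a cytosolic aminopeptidase, complete the 18 with introns of 418 and 447 bases. They rose from 0.073 ± 0.0016 to 0.097 ± 0.0048 and from 0.081 ± 0.0016 to 0.105 ± 0.0046, and both calls held with any 1 library left out (main adjusted p = 2.11e-05 and 0.00684). The other HSP90B1 members, of 277, 89 and 87 bases, changed by -0.08, -0.01 and 0.02, and none was called. The 120-base intron of NPEPPS changed by 0.30 and was not called (edgeR adjusted p = 0.242), and its 113-base intron is among the falls below.

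The 10 falls were in 10 genes. SLC39A7, a zinc transporter of the endoplasmic reticulum (ENSG00000112473), had the most reads among them. Its 303-base intron at chr6:33200939-33201241, whose first 165 bases are printed above, stood at 0.627, 0.644 and 0.656 in DMSO and 0.573, 0.584 and 0.574 with palbociclib. The change was -0.40 (SE 0.09, edgeR adjusted p = 0.00623), and without DMSO replicate 3 the adjusted p was 0.0712. Retained reads hardly moved (log2 -0.04, adjusted p = 0.732), while spliced reads rose by 0.36. The intron's first 165 bases lie in the promoter window of RXRB, a gene on the opposite strand. The counting strand is not given, and whether RXRB reads entered the intron's counts was not tested. SLC39A7 introns of 88, 158, 209 and 434 bases were kept at 0.021 to 0.043 in DMSO and none passed the test.

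NDUFB10, a subunit of respiratory complex I (ENSG00000140990), fell in its 160-base intron at chr16:1961637-1961796 from 0.221, 0.214 and 0.178 in DMSO to 0.169, 0.16 and 0.128 with palbociclib (change -0.52, SE 0.11, edgeR adjusted p = 0.00481). The lowest DMSO value was close to the highest palbociclib value, and without palbociclib replicate 3 or DMSO replicate 1 the call was lost (adjusted p of up to 0.0681). It was the 1 call among 24 introns of respiratory chain and mitochondrial ribosome genes, whose list of 16 genes leaves out assembly factors. The retained reads of NDUFB10 fell by 0.49 and, unlike in the other falls, its spliced reads changed little (0.03). HEXD, a hexosaminidase, fell in an 89-base intron from 0.316, 0.196 and 0.276 to 0.148, 0.164 and 0.121. ALS2CL fell in a 299-base intron from 0.152, 0.242 and 0.247 to 0.119, 0.08 and 0.113, and its spliced reads rose from 79, 75 and 59 to 206, 214 and 196. The noncoding HOXB-AS1 had the largest fall in level, from 0.483 ± 0.027 to 0.356 ± 0.017 in a 137-base intron. The edgeR adjusted p was 0.0147 for HEXD, 0.0221 for ALS2CL and 0.035 for HOXB-AS1. HEXD and ALS2CL were each called in 3 of the 6 fits with 1 library left out and HOXB-AS1 in 0, with adjusted p of up to 0.147, 0.164 and 0.177. ACADVL, an enzyme of fatty acid oxidation, and ABCF3, an ABC family protein, had small falls in introns of 93 and 99 bases (-0.018 and -0.025 in level), which were also called in 0 of these fits (up to 0.205 and 0.209).

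The last 3 falls were in NPEPPS, NSUN5P2 and an unnamed gene. NPEPPS has near-identical partial copies in the genome, and whether reads of either of its called introns were shared with them was not tested. It fell in a 113-base intron from 0.695 ± 0.02 to 0.586 ± 0.018 (edgeR adjusted p = 0.025), while its 447-base intron, 33017 bases upstream, rose. Both forms of the 113-base event rose, by 0.86 and 1.55 on the log2 scale. NSUN5P2, a transcribed pseudogene of NSUN5 whose reads may likewise be shared, fell in a 70-base intron from 0.871 ± 0.015 to 0.78 ± 0.018 (adjusted p = 0.0147). The unnamed gene ENSG00000290928 on chromosome 17 fell in a 133-base intron from 0.858 ± 0.013 to 0.774 ± 0.0039 (adjusted p = 0.011). With 1 library left out, the highest adjusted p was 0.169, 0.0809 and 0.0757, and each of the 3 calls was lost in at least 3 of the 6 fits.

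**Figure D5:**
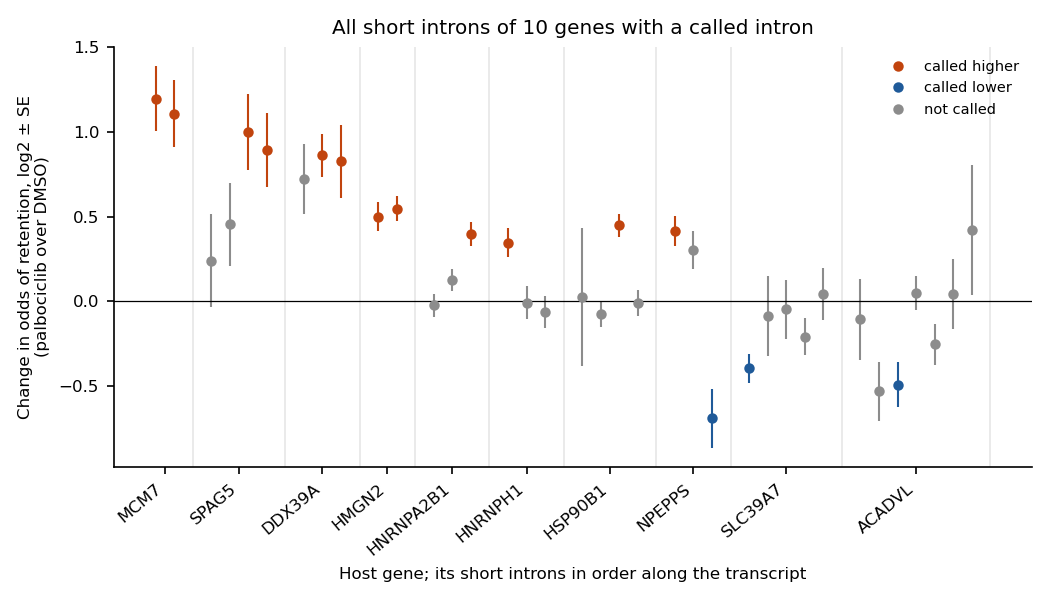
Change in the odds of retention (log2, palbociclib over DMSO, with bars of 1 SE) for every short intron of 10 genes with a called intron, in order from the 5′ to the 3′ end of each gene. Orange, blue and grey mark introns called higher, called lower and not called. All members of MCM7 and HMGN2 were called, but 1 of 3 in HNRNPA2B1 and HNRNPH1 and 1 of 5 in SLC39A7.

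Reads across the intron's 2 ends were counted separately by the authors. In all 28 called introns, reads across the 5′ end and reads across the 3′ end, each relative to spliced reads, moved in the direction of the call. These reads are parts of the counts from which the introns were called, so this describes the calls and does not support them. For RBM25, reads across the 5′ end were 18.7% of spliced reads in DMSO and 29.1% with palbociclib, and across the 3′ end 19.2% and 32.6%. For SLC39A7 they were 169% and 127% at the 5′ end and 151% and 106% at the 3′ end. For the 185-base MCM7 intron the ends differed in size, 20% and 40.9% at the 5′ end against 4.65% and 10.5% at the 3′ end.

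Each form was also tested alone, relative to the spliced reads of all introns tested. Retained-form reads were more in 182 short introns (6.16%, against 7.6% of all introns tested) and fewer in 225 (7.62%, against 8.41%). Spliced-form reads were more in 448 (15.2%, against 13.1%) and fewer in 424 (14.4%, against 15.7%). Both forms passed the test in 280 short introns, in the same direction in 276. The 4 with opposite directions were those of NR2C1, CPSF7, RBM25 and ENSG00000290928. Among the 18 introns with higher retention, the retained form rose in 6 and fell in 9, and the spliced form fell in 15 and rose in 2. Among the 10 with lower retention, the spliced form rose in 9 and fell in 0, and the retained form fell in 2 and rose in 1.

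Of the 1760 host genes, 1756 had a mean FPKM of at least 0.5 and were tested with limma on log2(FPKM + 1). RNA was higher with palbociclib in 523 (29.8%, against 20.9% of 15869 genes) and lower in 450 (25.6%, against 22.9%). Quantile normalization gave 680 higher and 363 lower, which moved the share of higher among changed host genes from 53.8% to 65.2%. The 733 members in hosts with lower RNA had 12 higher (1.64%) and 2 lower calls and a median change of 0.03. The 922 members in hosts with higher RNA had 3 higher (0.325%) and 8 lower calls and a median change of -0.07. Over all introns tested, 1.1% were called higher and 0.307% lower. Where the host had fallen by at least 1 on the log2 scale, 9 of 102 introns in 61 genes rose (8.82%) and 0 fell. The 9 were the called introns of MCM7, SPAG5, DDX39A, HMGN2 and PRIM1 alone. Several introns of a gene share its transcripts, so they are not independent. The median change of the 102 was 0.04 and 56 were positive. Spearman's rho between host RNA change and change in log2 odds was -0.10 over 2949 introns. Both measures come from the same libraries and partly the same reads, so this is a description.

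The other lists held few members each. At the shares called over all introns, 1.1% higher and 0.307% lower, counts of 0 or 1 in lists of at most 50 introns are near the background and are not a result about these genes. Of 29 introns of cytosolic ribosomal protein genes, 0 were called, with a median change of -0.04 in log2 odds, and 14 of their 22 host genes rose in RNA. The 102-base RPL10 intron printed above was kept at 0.334 in DMSO and 0.28 with palbociclib, with groups that did not overlap (change -0.36, SE 0.13, edgeR adjusted p = 0.199). No intron was called among 24 of core spliceosome genes, 41 of aminoacyl-tRNA synthetases and translation factors, 50 of chromatin modifiers, 23 of proteasome and ubiquitin genes or 37 of immune genes. The list of decay, export and cap or poly(A) binding genes had 15 members, with CPSF7 as the 1 call. Oestrogen receptor targets and luminal factors had 4 members and 0 calls. Across these lists the median change ran from -0.10 for immune genes to 0.09 for translation genes.

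The 3 most heavily read members without a call changed little. The 89-base intron of EEF1A1, a translation elongation factor with near-identical copies, had a mean of 53260 reads per library and stood at 0.04 ± 0.0031 in DMSO and 0.037 ± 0.00097 with palbociclib (change -0.14, SE 0.05, edgeR adjusted p = 0.242). A 221-base intron of PPIA, the cyclophilin A gene, changed by 0.05 (SE 0.05), and a 441-base intron of ACTB, encoding beta actin, by 0.19 (SE 0.06, adjusted p = 0.112). Among uncalled members with a mean of at least 50 reads, those with the highest levels in DMSO were in GSK3A (0.947), PNISR-AS1 (0.944) and DICER1-AS1 (0.94). The palbociclib levels of these introns were 0.834, 0.881 and 0.842. Their adjusted p ran from 0.179 to 0.81 by edgeR at 142.3, 56.5 and 155.8 reads per library. The authors' deposited table gives an FDR of 0.00928 for GSK3A and 0.0244 for DICER1-AS1. In GSK3A the ends of the intron were read very unequally. Reads across its 5′ end were 180% of spliced reads in DMSO and those across its 3′ end 3270%. Whether its level reflects transcripts that keep the whole intron was not tested. Under the same read limit, those kept least were in MSRB1 (0.008), EIF4G2 (0.009) and LMNA (0.01), with 0.016, 0.011 and 0.01 under palbociclib.

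Some short introns hold microRNA hairpins. Such microRNAs are cut from intron RNA. RefSeq placed 11 hairpins over 12 members, all on the host strand and 9 of the overlaps covering the hairpin in full. None was called. In HLA-B the hairpin of MIR6891 was the entire 93-base intron, kept at 0.061 in DMSO and 0.057 with palbociclib (adjusted p = 0.849). Groups did not overlap for 4 of the 12, 3 of them higher and 1 lower, against 8.81% higher and 7.58% lower over all introns tested. Mature microRNAs of these 4 and of TMEM94, whose hairpin fills most of a short intron, are printed 5′ to 3′ with the seed, bases 2 to 8, in capitals.
hsa-miR-8085, in BCL3: uGGGAGAGaggacugugaggc
hsa-miR-4723-5p, in TMEM199: uGGGGGAGccaugagauaagagca
hsa-miR-6785-5p, in TMEM94: uGGGAGGGcguggaugauggug
hsa-miR-6789-5p, in PLEKHJ1: gUAGGGGCgucccgggcgcgcggg
hsa-miR-6859-5p, in WASH7P and WASH9P: gAGAGGAAcaugggcucaggaca

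No seed was shared among these 5. The 310-base BCL3 intron, in a gene of the NF-kappaB pathway, was kept at 0.11 in DMSO and 0.17 with palbociclib (change 0.72, SE 0.28, edgeR adjusted p = 0.255). The 163-base TMEM199 intron stood at 0.04 and 0.066 (adjusted p = 0.204), the 90-base TMEM94 intron at 0.051 and 0.077 (adjusted p = 0.509) and the 94-base PLEKHJ1 intron at 0.044 and 0.03 (adjusted p = 0.56). WASH9P was the remaining one without overlap, at a mean of only 20.17 reads. WASH7P and WASH9P are near-identical pseudogenes and hold the same microRNA, so their reads are uncertain. The RNA libraries do not measure the mature microRNAs.

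Accessible chromatin was found over few of the introns. An ATAC peak overlapped 148 of the 2953 (5.01%) and 73 of the longer ones (4.53%), by at least 1 base. None of the 28 called introns had a peak. Of the 129 peaks over short introns, 18 lost accessibility with palbociclib (14%, against 6.46% of 38121 peaks) and 3 gained it (2.33%, against 5.41%), by edgeR over all peaks. The largest loss was over a 395-base intron of TYK2, a Janus kinase, with a log2 change of -0.80 (SE 0.18, adjusted p = 0.00157) and an inclusion level of 0.512 in DMSO and 0.458 with palbociclib (adjusted p = 0.807). The 3 gains were over introns of GIRGL, MOV10 and ZSCAN31, at 0.20, 0.24 and 0.36. TYK2 and these 3 were named after their values were seen. With DMSO replicate 3 left out the counts were 11 lost and 0 gained. Peak reads were 12.8 to 18.3 M per ATAC library.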

How the data were processed

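Inclusion and skipping read counts per retained intron, with a difference of inclusion levels used as a score, p-values and an FDR, were deposited by the authors as an rMATS table of junction and exon-body counts, per the file headers. FPKM per gene, 1 column per library, and ATAC counts per peak, made with featureCounts over 1 peak set, were also deposited by the authors, per the labels and the file headers. The submitters' processing notes name GRCh38, STAR 2.7.10b, Salmon 1.10.2 and fastp 0.23.2 for RNA. The counting strand and the rMATS version are not given in the sources used here.

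Groups came from the labels. Deposited inclusion levels were within 0.0005 of those computed here. For 645 members, all of 98 bases or less, the deposited retained count was below the sum of its parts, since a read can span both ends. Retention was tested with edgeR 4.0.16 in R 4.3.3 (quasi-likelihood, a term per library, retained form, and retained form by treatment) with Benjamini-Hochberg adjustment over 4565 introns. Each form and each ATAC peak was tested with edgeR, RNA with limma 3.58.1 (log2(FPKM + 1), mean FPKM at least 0.5), and per-library means with exact permutation. DESeq2 1.42.0 was an alternative. The fits were tested on simulated data. The ATAC test was added after seeing the files. Members, tests and the 13 gene lists were chosen with earlier results of these data known. From lists made by symbol prefix, 12 genes that only share the prefix (pseudogenes, antisense or divergent transcripts, kinases, assembly factors) were left out after values were seen.

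Named introns were, among called ones with at least 50 reads per library, non-overlapping groups and 1 per gene, the 10 largest rises and 10 largest falls in level. Called members of the lists and introns beside each limit were also named. Of the uncalled, the 3 with most reads were named. Among uncalled introns with at least 50 reads per library, the 3 with the highest and the 3 with the lowest DMSO level were named. Sequences are RefSeq's (GRCh38.p14). Depth of the FPKM libraries was not used.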

Additional observations from a re-analysis of the deposited data

How the results depend on the processing

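The count of short introns with higher retention was 18 and moved by over 1.5 times in 2 settings. It was 59 by the authors' rMATS FDR and 9 when only introns under 300 bases were kept. The count with lower retention, 10, was 4 with DESeq2, 6 without the filter on low counts and 76 by the authors' FDR, and ranged from 2 to 7 with 1 library left out. The mean retention of short introns, -0.0056, was 0.0013 from summed counts, and the cause was not tested. Its other alternatives kept the sign, as did all of those for short minus longer introns. Peaks over short introns with higher accessibility numbered 3, with 1 by DESeq2 and 0 to 2 with 1 library left out. Those with lower accessibility numbered 18, and 11 to 17 with 1 library left out. Counts for each form alone and for host genes stayed within 1.5 times of the main count in every alternative run. Rarer forms of at least 10%, a mean of at least 50 reads, TMM factors, robust fitting and 1 event per intron also kept both retention counts within that range.

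The replicate number as a replicate block gave 26 higher and 11 lower, and all 28 named calls held. Deviations of same-numbered libraries had correlations of -0.02, 0.00 and 0.03 for retention and 0.11, -0.01 and 0.09 for host RNA, so the numbers were not taken to pair libraries. DESeq2 held 18 of the 28. Of the 10 falls, ACADVL, ABCF3 and HOXB-AS1 were lost in each of the 6 fits with 1 library left out. Over the short introns the median depth was 223.5 reads per library and the median SE of the log2 odds change was 0.33.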
